A study of Mus musculus with 8 samples.

Results

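The genes described are Gas5 and 7 other non-coding host genes of small nucleolar RNAs (snoRNAs), namely Snhg1, Snhg3, Snhg5, Snhg6, Snhg8, Snhg12 and Zfas1. They are 8 of the 20189 genes in the expression table, and they were selected on being non-coding snoRNA hosts and on their levels in acetate against vehicle libraries, which were already known. The acetate against vehicle values of these genes are therefore a description and carry no test. The cells were 4T1, a wild-type mouse mammary carcinoma line, kept in DMEM with fetal bovine serum and given either water (vehicle) or 5 mM acetate for 48 hours. Poly-A RNA was sequenced in 4 vehicle and 4 acetate libraries, numbered 1 to 4 in each group, and same-numbered libraries form a pair. The study counts these replicates as independent experiments, and all of them were made in 1 cell line.

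SnoRNAs are short RNAs of the nucleolus that guide ribose methylation (the C/D box class) or pseudouridylation (the H/ACA class) of ribosomal RNA. Most vertebrate snoRNAs are cut out of the introns of a longer host transcript after splicing, and the spliced host RNA that is left over has a fate of its own. Many hosts carry a pyrimidine-rich start of the kind found on messages for ribosomal proteins, through which mTOR controls translation, and many of the spliced RNAs are removed by nonsense-mediated decay because ribosomes read only a short frame in them. Gas5 was named for its build-up in growth-arrested cells and is also known to bind the glucocorticoid receptor. Zfas1 was first described in the mammary gland, and several Snhg RNAs have been studied in tumours.

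The genome annotation placed 32 snoRNA genes on the same strand inside the 8 genes, so each gene was a host by its annotation. Gas5 held 10, Snhg1 held 8, Snhg12 held 5, Zfas1 held 3, Snhg3 and Snhg5 held 2 each, and Snhg6 and Snhg8 held 1 each. Of the 32, 31 lay in an intron of the transcript that was drawn and Snord99 of Snhg12 overlapped an exon. The annotation listed Snord80 and Snora16a each as 2 overlapping entries and typed Mir5117 of Gas5 as a snoRNA, so the number of distinct snoRNAs is lower. By sequence, 20 of the 32 had the letters TGATGA (box C) in the first 20 bases and CTGA (box D) in the last 20. Another 6 had ACA ending 3 bases before the end, the mark of the H/ACA class, and 6 had neither.

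**Figure D1:**
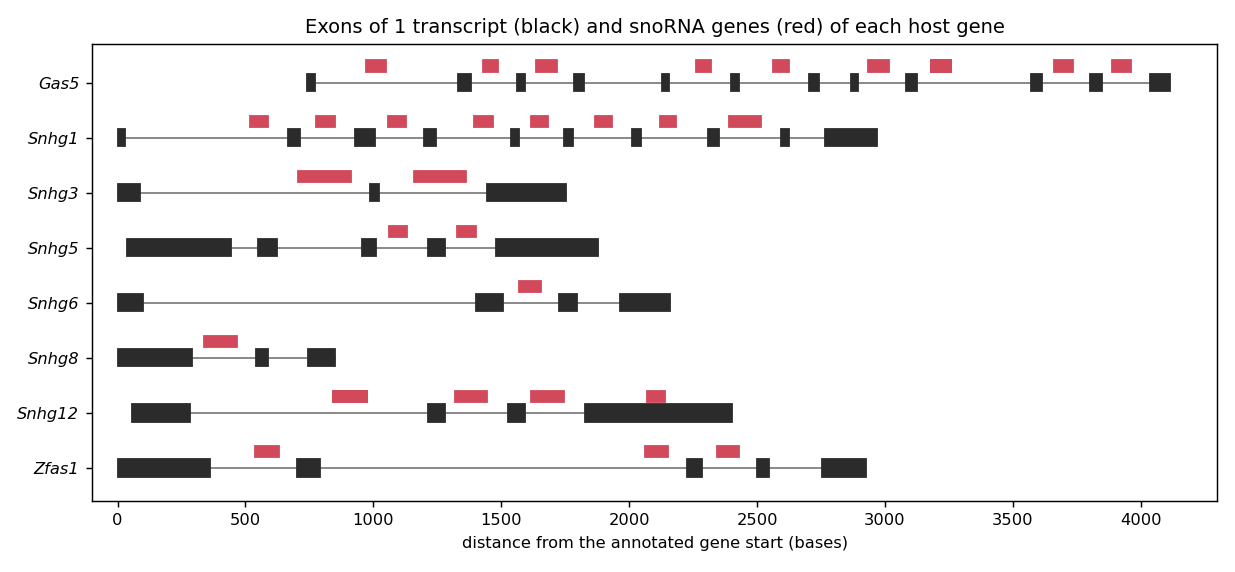
Exons of 1 annotated transcript of each host gene (black) and the snoRNA genes on the same strand (red), against the distance in bases from the annotated gene start in the direction of transcription. The 10 snoRNA genes of Gas5 (2 of them overlap and cannot be told apart here) and the 8 of Snhg1 are spread over many introns, whereas Snhg6 and Snhg8 hold 1 each.

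A few of the guests show what the hosts carry, read from build GRCm38 and printed 5′ to 3′ on the strand of the gene, with boxes C and D or the ACA box in capitals. Snord47 of Gas5 (chr1:161038082-161038158, plus strand) has a typical C/D form. Snord50a (chr9:88521529-88521600, minus strand) and Snord50b (chr9:88521797-88521868, minus strand) lie in neighbouring introns of Snhg5 and differ at 1 of 72 bases (C50A, counted from 1 at the 5′ end, with Snord50a first). Snord87 of Snhg6 (chr1:9942463-9942549, minus strand), Gm23201 of Zfas1 (chr2:167064998-167065086, plus strand) and Snora73b of Snhg3 (chr4:132352322-132352526, minus strand) are shown because the expression table lists them. Snora24 of Snhg8 (chr3:123507937-123508066, minus strand) is the only guest of its host.
Snord47: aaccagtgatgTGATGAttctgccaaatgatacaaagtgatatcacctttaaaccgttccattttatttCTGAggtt
Snord50a: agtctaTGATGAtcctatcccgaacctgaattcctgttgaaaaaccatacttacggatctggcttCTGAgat
Snord50b: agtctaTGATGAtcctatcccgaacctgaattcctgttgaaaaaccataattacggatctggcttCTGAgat
Snord87: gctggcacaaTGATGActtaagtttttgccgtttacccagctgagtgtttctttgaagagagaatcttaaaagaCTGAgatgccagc
Gm23201: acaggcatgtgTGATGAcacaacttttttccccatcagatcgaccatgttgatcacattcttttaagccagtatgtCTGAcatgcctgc
Snora73b: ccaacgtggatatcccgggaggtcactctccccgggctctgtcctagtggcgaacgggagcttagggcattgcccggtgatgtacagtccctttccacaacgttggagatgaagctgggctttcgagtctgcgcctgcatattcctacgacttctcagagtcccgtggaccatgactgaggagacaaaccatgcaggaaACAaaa
Snora24: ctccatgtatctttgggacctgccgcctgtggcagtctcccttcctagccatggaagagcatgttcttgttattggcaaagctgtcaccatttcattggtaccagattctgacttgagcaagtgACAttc

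The start of each host is shown next, because the pyrimidine run at the start is the feature for which these genes are often grouped. RefSeq gave a promoter for 7 of the 8 genes, with 2 start sites for Gas5, on build GRCm38.p6. The lines below hold 70 bases before the start and 20 from it on, with capitals for TATA, for TGACGTCA (the full site of the CREB and ATF family) and for the longest run of C and T that touches the bases from 10 before to 10 after the start. Snhg6 had no entry. The windows are chr1:161034531-161034620 and chr1:161035096-161035185 for Gas5 and chr19:8723417-8723506 for Snhg1, followed by chr4:132353667-132353756 for Snhg3 and chr9:88522878-88522967 for Snhg5. Those of Snhg8, Snhg12 and Zfas1 are chr3:123508317-123508406, chr4:132308608-132308697 and chr2:167062864-167062953. Snhg3, Snhg5 and Snhg8 are on the minus strand and the others on the plus strand.
Gas5, first start: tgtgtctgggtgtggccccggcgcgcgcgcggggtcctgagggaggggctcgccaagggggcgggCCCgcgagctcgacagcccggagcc
Gas5, second start: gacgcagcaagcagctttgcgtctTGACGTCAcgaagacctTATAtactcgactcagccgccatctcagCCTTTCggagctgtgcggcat
Snhg1: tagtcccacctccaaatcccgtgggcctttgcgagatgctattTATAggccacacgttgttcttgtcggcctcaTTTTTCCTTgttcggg
Snhg3: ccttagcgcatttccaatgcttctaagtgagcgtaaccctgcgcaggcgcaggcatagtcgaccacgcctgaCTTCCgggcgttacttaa
Snhg5: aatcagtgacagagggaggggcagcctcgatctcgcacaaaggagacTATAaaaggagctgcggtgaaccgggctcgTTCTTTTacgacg
Snhg8: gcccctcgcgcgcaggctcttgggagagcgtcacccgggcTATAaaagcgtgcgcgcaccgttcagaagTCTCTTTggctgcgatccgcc
Snhg12: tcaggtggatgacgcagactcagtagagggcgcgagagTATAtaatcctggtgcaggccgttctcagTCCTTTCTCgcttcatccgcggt
Zfas1: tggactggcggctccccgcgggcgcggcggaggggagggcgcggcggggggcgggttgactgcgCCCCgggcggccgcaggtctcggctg

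TATA on the strand of the gene, between 60 and 10 bases before the start, was found in 5 of the 8 promoters, those of Snhg1, Snhg5, Snhg8, Snhg12 and the second start of Gas5. It began 27, 23, 30, 32 and 29 bases before the start in that order. Of all 15057 promoters of genes in the table, 5.35% held it. A C and T run of at least 6 bases near the start was present in 5 of the 8 promoters and in 29.5% of all promoters. These were the same 5 promoters, with runs of 9, 7, 7, 9 and 6 bases. The median run that covered the start base itself was 2.0 bases in the host promoters and 0.0 bases in all promoters, and within 10 bases of the start the medians were 6.5 and 4.0. TGACGTCA, which reads the same on both strands, was found 46 bases before the second start of Gas5 and in 2.86% of all promoters. CACGTG, the core E-box and likewise a palindrome, was in none of the 8 promoters and in 9.24% of all promoters. Both TGACGTCA and CACGTG were searched over the whole promoter sequence, which reaches beyond the bases printed above. A match is a description of these letters and does not show that a factor binds, and an absent match says only that the letters are not in the stretch searched.

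The depth behind the values was 19.9 to 29.3 M reads per library (M, mega). Values are normalised reads, in units for which each library sums to 20000000, and 1 read was worth 0.68246 to 1.0053 units. The lowest count behind any value of the 8 genes was 211 reads (Snhg3). Median-of-ratios scaling, an alternative to the library total, gave factors of 0.8952 and 0.9089 for vehicle 1 and acetate 1. The other libraries had factors of 1.018 to 1.048. A test of differences between the 4 pairs is given further on, and pair 1 was not tested against the rest. The epithelial markers Epcam, Cdh1, Krt8, Krt18 and Krt19 were all present, and their summed level was 42130 to 59632 units in vehicle and 44422 to 60637 units in acetate. Of the leukocyte, macrophage, endothelial and fibroblast markers the table held 5 of 7, and Ptprc, Pecam1, Cdh5 and Dcn were at 0 to 14.5 units, while Pdgfra was at 229 to 1961 units. Because whole cultures were sequenced, less RNA per cell cannot be told apart from fewer cells that make it.

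Per kilobase of merged exon, Gas5 was the highest of the 8 genes in vehicle cells, at 1383 ± 110 units per kb (mean ± SD, n = 4). Snhg8 followed at 1168 ± 131 and Snhg5 at 925 ± 321 units per kb. The order of these levels was not firm throughout. Gas5 exceeded Snhg8 in 4 of 4 vehicle libraries, by 0.25 ± 0.12 on the log2 scale, whereas the difference of Snhg8 from Snhg5 was 0.39 ± 0.56 and held in 3 of 4. Snhg1 (605 ± 152), Snhg6 (597 ± 84.6) and Zfas1 (556 ± 80.9 units per kb) did not differ beyond their spread, and their order held in 2 of 4 libraries at each step. Snhg3 and Snhg12 were lowest, at 255 ± 118 and 213 ± 23.7 units per kb, and did not differ beyond their spread either. Among 20004 genes with a length, 97.0% had a lower level per kb than Gas5 and 75.9% a lower level than Snhg12. Retained introns widen the merged exons of some hosts (20 of 25 annotated Gas5 transcripts), and with the longest transcript as length Snhg5 moved above Snhg8 and Snhg1 below Zfas1.

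Gas5 (ENSMUSG00000053332, chr1:161034422-161038539, plus strand) was lower with acetate in each pair. The vehicle libraries 1 to 4 held 4685, 5158, 5260 and 5694 units, and the acetate libraries 4623, 4173, 4547 and 4057 units. Every acetate library was below every vehicle library, although acetate 1 lay only just under vehicle 1. The means were 5199 ± 414 units in vehicle and 4350 ± 277 units in acetate, a ratio of 0.837. The log2 differences of acetate from vehicle in pairs 1 to 4 were -0.02, -0.31, -0.21 and -0.49, with a mean of -0.26 and an SD of 0.20. The pair with the highest vehicle value thus had the lowest acetate value. Groups that did not overlap, with acetate lower, were seen in 0.654% of all genes, and this share is printed as background to a choice that used the same values.

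Snhg12 (ENSMUSG00000086290, chr4:132308623-132311024, plus strand), host of H/ACA snoRNAs, had the lowest ratio of the 8. Its vehicle libraries held 586, 458, 475 and 523 units and its acetate libraries 558, 373, 365 and 293 units. Acetate 1 was above 3 of the 4 vehicle libraries, so the groups overlapped. The means were 511 ± 57.0 and 397 ± 113 units, a ratio of 0.778. Pair differences were -0.07, -0.30, -0.38 and -0.84 (mean -0.40, SD 0.32), and pair 4 had the largest. Without pair 4 the fitted difference with the pairs as a block was -0.25.

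Zfas1 (ENSMUSG00000074578, chr2:167062934-167065862, plus strand), host of C/D snoRNAs with 4 of 5 annotated transcripts retaining an intron, held 1396, 1666, 1511 and 1944 units in vehicle and 1372, 1426, 1502 and 1625 units in acetate. The groups overlapped, and each acetate library was below its own partner. The means were 1629 ± 237 and 1481 ± 110 units, and the pair differences -0.03, -0.22, -0.01 and -0.26 averaged -0.13 (SD 0.13).

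Snhg5 (ENSMUSG00000097195, chr9:88521050-88522929, minus strand), host of Snord50a and Snord50b, held 2396, 1373, 1511 and 1122 units in vehicle and 2395, 1337, 1447 and 971 units in acetate. Its libraries fell by pair rather than by treatment, with pair 1 highest in both groups. The pair differences were -0.00, -0.04, -0.06 and -0.21, with a mean of -0.08 (SD 0.09).

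Snhg1 (ENSMUSG00000108414, chr19:8723475-8726443, plus strand) hosts 8 snoRNA genes in its introns. By the box search 5 of these had boxes C and D and 3 had neither box set. Snhg1 held 2345, 1821, 1775 and 1239 units in vehicle and 2464, 1551, 1653 and 1046 units in acetate. Acetate was higher in pair 1 and lower in the other pairs, at 0.07, -0.23, -0.10 and -0.24. The mean difference was -0.13 (SD 0.15), against SDs of 452 units in vehicle and 587 units in acetate.

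Snhg8 (ENSMUSG00000104960, chr3:123507552-123508404, minus strand), host of the H/ACA snoRNA Snora24, held 970, 947, 909 and 1159 units in vehicle and 1003, 867, 875 and 946 units in acetate. The groups overlapped, and pair 1 again differed in sign, with 0.05, -0.13, -0.05 and -0.29 for pairs 1 to 4 (mean -0.11, SD 0.14).

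Snhg6 (ENSMUSG00000098234, chr1:9941959-9944118, minus strand), host of Snord87, held 794, 597, 737 and 609 units in vehicle and 800, 603, 662 and 496 units in acetate. The groups overlapped, and pairs 1 and 2 differed by 0.01 and 0.02 while pairs 3 and 4 differed by -0.16 and -0.30. The mean was -0.11 with an SD of 0.15.

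Snhg3 (ENSMUSG00000085241, chr4:132348014-132353686, minus strand), host of Snora73a and Snora73b, held 417, 191, 241 and 155 units in vehicle and 410, 233, 215 and 152 units in acetate. The means of 251 ± 116 and 252 ± 111 units differed by less than their spread, and the pair differences were -0.02, 0.28, -0.16 and -0.03. Its mean difference of 0.02 (SD 0.19) was the only one above 0 among the 8, and with median-of-ratios scaling it was -0.00.

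**Figure D2:**
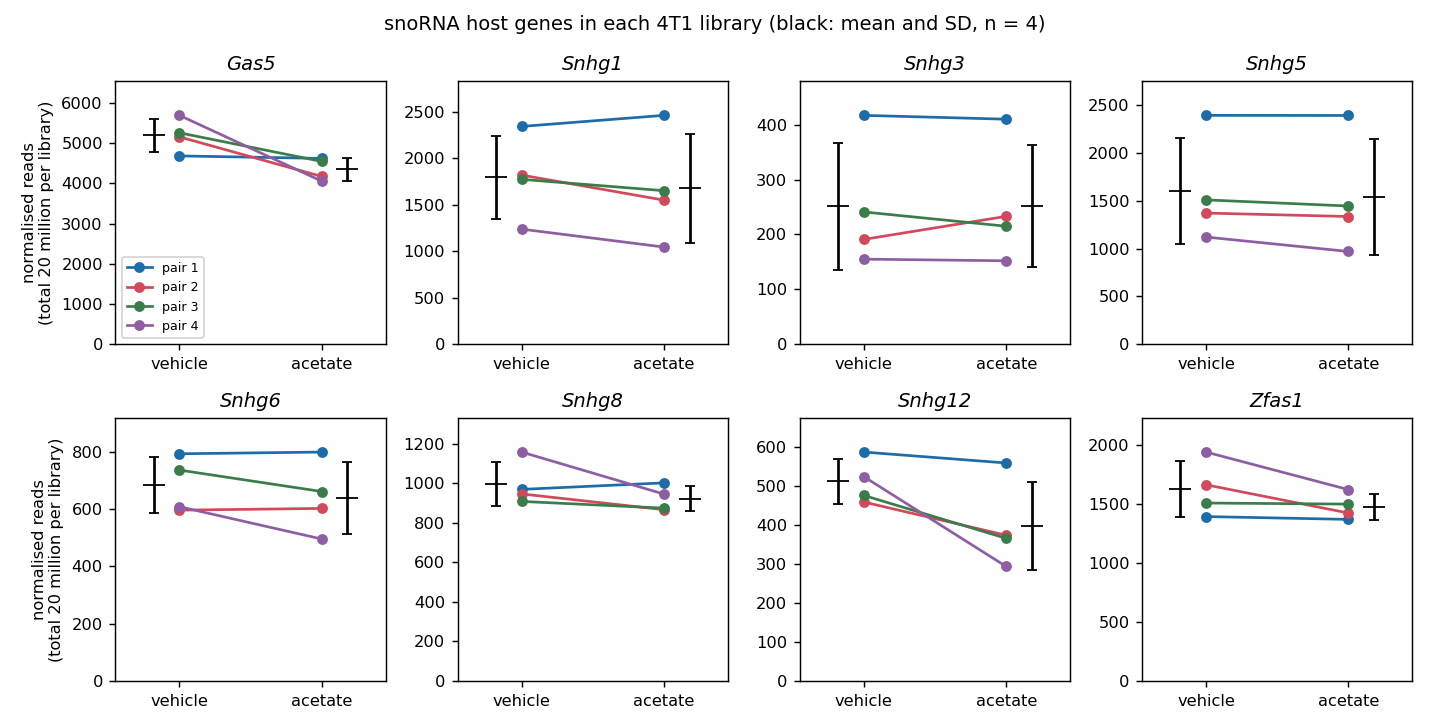
Normalised reads (units of a library total of 20000000) of each host gene in vehicle and acetate libraries, with lines joining same-numbered pairs and black bars for the mean and SD of each group (n = 4). Gas5 is lower in all 4 acetate libraries than in any vehicle library, while Snhg1, Snhg3 and Snhg5 are highest in pair 1 and lowest in pair 4 in both groups.

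Summed over the 8 genes, the vehicle libraries held 13589, 12210, 12419 and 12444 units, which is 0.0611% to 0.0679% of a library. The acetate libraries held 13624, 10562, 11266 and 9586 units. The sums of pair 1 differed by 0.00 and those of pairs 2 to 4 by -0.21, -0.14 and -0.38 on the log2 scale. Gas5 made up 34.5% of the sum in vehicle 1 and 42.2% to 45.8% in the other vehicle libraries, and 33.9% and 39.5% to 42.3% in the acetate libraries. The median difference of the 8 genes in pairs 1 to 4 was -0.01, -0.18, -0.13 and -0.28, beside medians over all genes of 0.02, 0.00, 0.00 and 0.03. In pairs 3 and 4 all 8 genes were lower with acetate, in pair 2 it was 6 and in pair 1 it was 5. Of all genes, 42.3%, 48.0%, 48.3% and 42.9% were lower in pairs 1 to 4. Genes lower in 4 of 4 pairs were Gas5, Snhg5, Snhg12 and Zfas1, that is 4 of 8, while 11.4% of all genes and 18.2% of the 10292 genes with a mean of at least 100 units were.

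**Figure D3:**
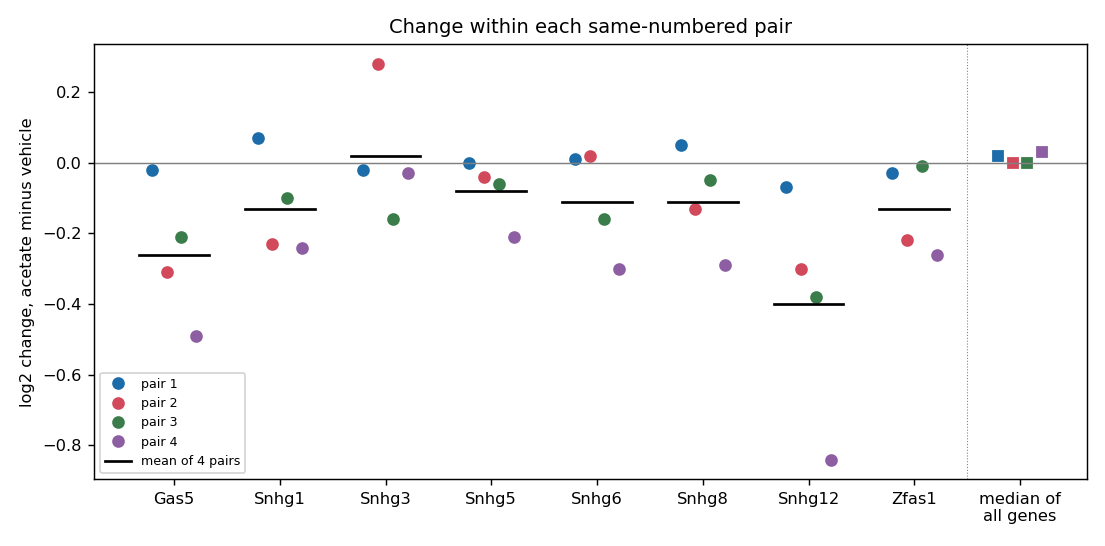
Difference of acetate from vehicle on the log2(value + 1) scale within each pair, for the 8 host genes (points, with the mean of 4 pairs as a black bar) and the median over all genes (squares). In pair 4 the host genes lie between -0.84 and -0.03 and in pair 1 between -0.07 and 0.07, while the median over all genes stays between 0.00 and 0.03.

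In the fit across all genes without the pairs, limma called 0 of 20189 genes after Benjamini-Hochberg adjustment, with 353 (1.75%) at an unadjusted p under 0.05. DESeq2 on recovered reads called 7 and edgeR 0. With the replicate number as a block, limma called 535 genes lower (2.65%) and 1209 higher (5.99%), together 8.64%. Of the host genes, Gas5 and Snhg12 were among the lower calls, which is 2 of 8. Because the list was chosen with this contrast known, nothing is read from that count. It was 3 without pair 1 and 0 without pair 2, pair 3 or pair 4. With the block, edgeR had 4 of the 8 among its lower calls (5.38% of all genes) and DESeq2 had 2 (3.83%). Ranked by the fitted difference among the 10292 genes with a mean of at least 100 units, 0.233% were lower than Snhg12 and 1.33% lower than Gas5. For Zfas1, Snhg1, Snhg8 and Snhg6 the share was 8.32% to 12.4%, for Snhg5 19.4% and for Snhg3 56.5%.

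The 4 pairs differed from each other for 7 of the 8 host genes, a comparison that the choice of genes did not use. In limma's F-test of the replicate number, with treatment in the fit, 11746 of 20189 genes (58.2%) and 85.7% of those with a mean of at least 100 units had an adjusted p under 0.05, so a host gene was no exception in differing. Gas5 was the one that did not pass. Its pair means were 4653, 4639, 4890 and 4806 units (adjusted p = 0.779), a ratio of 1.05 between the highest and lowest pair, beside 1.41 for the median gene. Snhg3 had the widest range, with pair means of 414, 211, 228 and 153 units (ratio 2.69, adjusted p = 2.08e-06). Snhg5 (2396, 1355, 1478 and 1044 units, adjusted p = 2.35e-08) and Snhg1 (2404, 1680, 1713 and 1139 units, adjusted p = 4.68e-07) had the same order of pairs. Snhg6 (adjusted p = 0.000327) and Snhg12 (adjusted p = 0.0134) were likewise highest in pair 1 and lowest in pair 4. Zfas1 went the other way, from 1384 units in pair 1 to 1777 units in pair 4 (adjusted p = 0.00263), and Snhg8 was also highest in pair 4 (1047 units, adjusted p = 0.0422). Snhg12 lost its call without pair 1 (adjusted p = 0.789) and Zfas1 without pair 4 (adjusted p = 0.134), and Snhg8 lost it without pair 2, pair 3 or pair 4 (adjusted p = 0.0645, 0.122 and 0.127). Snhg8 also lost it with a pseudocount of 0.1 (adjusted p = 0.0696). Without pair 1 the number of genes called was 6199. The pair means, their order and the Gas5 ratio are on the library-total scale. The median-of-ratios factors given above would raise pair 1 against the other pairs. The orders of Snhg8 and Zfas1 and the small ratio of Gas5 therefore depend on the scale. With median-of-ratios scaling the adjusted p of the F-test was 0.183 for Gas5, 0.0237 for Zfas1 and 0.00292 for Snhg8.

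Split by source on the library-total scale, the replicate number held 4.15% of the variance of Gas5 over the 8 libraries, treatment 66.6% and the remainder 29.2%. With median-of-ratios scaling these shares were not computed. The median gene had 92.4% with the replicate number and 2.64% with treatment. Snhg5, Snhg3 and Snhg1 were at 98.4%, 97.5% and 94.8% with the replicate number. Snhg12 was between, with 44.0% by replicate number and 37.4% by treatment. The treatment shares rest on the values by which the genes were listed and are a description.

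**Figure D4:**
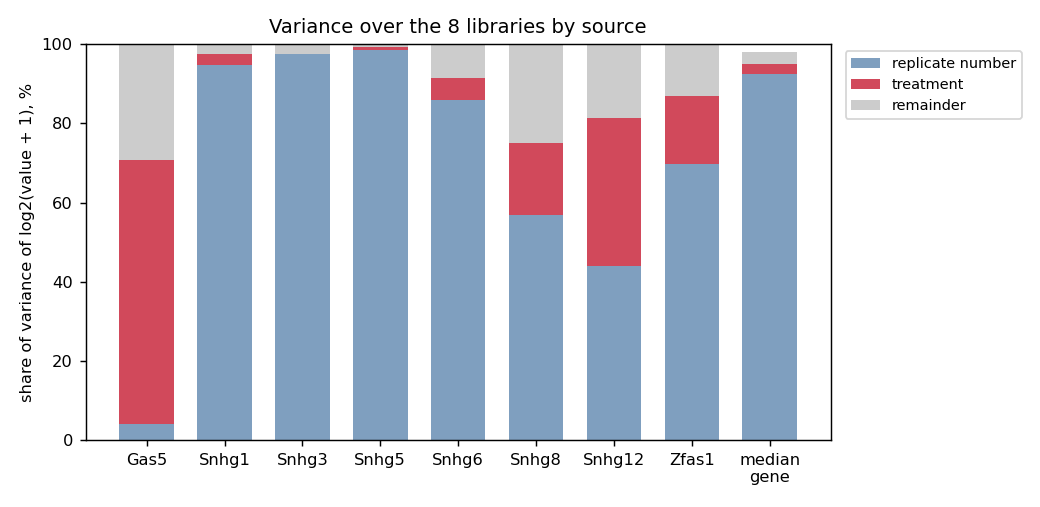
Share in percent of the variance of log2(value + 1) over 8 libraries that goes with the replicate number (blue), treatment (red) or neither (grey), for each host gene and for the median gene of those with a mean of at least 100 units, whose shares are medians and need not add to 100. Gas5 has 4.15% with the replicate number, while Snhg1, Snhg3 and Snhg5 have 94.8% or more.

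The table listed 4 of the 32 snoRNA genes, and poly-A libraries do not capture mature snoRNAs, so these reads can come from the host or from unspliced RNA. Snora73b of Snhg3 had 97.0, 45.6, 58.3 and 38.9 units in vehicle and 121, 49.3, 59.5 and 31.6 units in acetate, with pair 1 highest in both groups, as in its host. Gm23201 of Zfas1 had 122, 60.2, 65.3 and 35.5 units in vehicle and 88.7, 74.3, 59.5 and 27.3 units in acetate. It was highest in pair 1, where its host was lowest on the library-total scale. Snord87 of Snhg6 had 4 to 14 reads and Snora73a 0 to 6 reads per library, too few to compare. Snora73a and Snora73b are alike at 96.6% of 205 bases, so reads may be split between them.

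Some hosts share their locus with a protein-coding gene, and no source used here says if reads were assigned by strand, so reads may be shared too. The nearest annotated start to Gas5 was that of Zbtb37, 427 bases away on the opposite strand with overlapping spans, at 540 ± 61.0 units in vehicle and 529 ± 90.1 in acetate (log2 difference -0.04, blocked adjusted p = 0.717). Znfx1, 81 bases from Zfas1 and overlapping it on the opposite strand, was at 762 ± 34.4 and 796 ± 18.5 units (0.06, blocked adjusted p = 0.363). Rcc1, the guanine nucleotide exchange factor for Ran, starts 81 bases from Snhg3 on the same strand and was at 2242 ± 1029 and 2129 ± 1103 units (-0.10, adjusted p = 0.153). In none of these overlapping partners did the blocked fit make a call. Slc3a2, the heavy chain of amino acid transporters, starts 106 bases from Snhg1 on the opposite strand without overlap. It was at 3855, 4493, 4912 and 3080 units in vehicle and 3675, 3366, 4316 and 2575 units in acetate, and it fell by 0.23 on the log2 scale in the blocked fit (adjusted p = 0.0093). That call was lost without pair 2 (0.0593), pair 3 (0.0855) or pair 4 (0.105). Farther away, Prss12 (61491 bases from Snhg8) rose by 0.31 (adjusted p = 0.00289, and 0.0552 without pair 4) and Zfp949 (25091 bases from Snhg5) by 0.27 (adjusted p = 0.0427, lost without pair 2, 3 or 4). Tcf24, nearest to Snhg6, had a mean under 1 unit, and Rab42, nearest to Snhg12, was not analysed here.

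Of 14 further non-coding hosts written by name, the table held 8. In the blocked fit 0 fell and 1 rose, beside 2.65% and 5.99% of all genes, and their median difference was -0.12 beside 0.02 over all genes. Snhg14, host of imprinted brain snoRNA clusters, was at 222, 380, 323 and 363 units in vehicle and 248, 449, 376 and 464 in acetate, higher in 4 of 4 pairs (0.24, adjusted p = 0.0175, with DESeq2 0.101, and called only without pair 1 among the fits that left out a pair). Snhg15 was at 442 ± 149 and 396 ± 155 units (-0.18, adjusted p = 0.0544), Snhg17 at 1050 ± 126 and 1008 ± 133 units (-0.06) and Epb41l4aos at 106 ± 33.7 and 78.4 ± 23.0 units (-0.42, adjusted p = 0.0619). None of these last 3 passed the threshold in the blocked limma fit, while blocked edgeR called Snhg15 (adjusted p = 0.0319) and Epb41l4aos (adjusted p = 0.0121), and limma called Snhg15 without pair 1 (adjusted p = 0.0465). A wider list took all 30 other genes with a snoRNA gene on their strand that the annotation does not type as protein-coding. Cct6a is among them, so the type may not hold for each gene. Of the 30, 1 fell and 1 rose, with a median of -0.05. The one that fell was 2410006H16Rik, at 1030, 2219, 2236 and 3266 units in vehicle and 1001, 1717, 1875 and 2278 units in acetate (-0.30, adjusted p = 0.0111). It lost the call without pair 2, 3 or 4 (0.084, 0.102 and 0.107).

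Protein-coding hosts carry snoRNAs in genes for translation and ribosome assembly. Of 28 written by name, 8 fell and 0 rose in the blocked fit, and their median difference was -0.06. Among all genes 2.65% fell, and among the 10292 genes with a mean of at least 100 units 523 fell and 1018 rose. Leaving out pair 1, 2, 3 or 4 gave 11, 2, 0 and 0 lower calls. Examples were Gnl3, the nucleolar GTPase nucleostemin, which fell by 0.17 (3037 ± 1478 to 2748 ± 1469 units, lower in 4 of 4 pairs, adjusted p = 0.00906), and Nop58 and Nop56, core C/D proteins, which each fell by 0.15 (adjusted p = 0.014 and 0.0306). Dkc1, the pseudouridine synthase of H/ACA particles, fell by 0.17 (adjusted p = 0.0145). Over all 235 protein-coding genes that the annotation gives a snoRNA gene on their strand, 29 fell and 6 rose, and the median was -0.03. That is 14.9% called in either direction, beside 15.0% of all genes with a mean of at least 100 units. The balance of directions differed, since 523 of those 10292 genes fell and 1018 rose. Blocked edgeR gave 52 lower and 6 higher calls in this list, and blocked DESeq2 31 and 2. Without pair 1, 2, 3 or 4, the lower calls were 33, 9, 2 and 7. The largest differences among those called were in Mpped2 (16.9 ± 11.2 to 36.5 ± 20.3 units, 1.04, adjusted p = 0.0152), Phex (0.43, adjusted p = 0.03), Srcap (-0.39, adjusted p = 0.0472) and Aven (-0.36, adjusted p = 0.0151). Mpped2, Phex and Srcap had means under 100 units, and Aven had a mean of 196 units. Phex and Srcap lost the call whichever pair was left out and with blocked DESeq2 (adjusted p = 0.111 and 0.137), and Mpped2 and Aven kept it only without pair 1.

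Of 19 genes for snoRNA-binding proteins and their assembly, 7 fell and 0 rose, with a median of -0.10. Among the 10292 genes of at least 100 units, 523 fell and 1018 rose (15.0% in either direction). Nop56, Nop58 and Dkc1 are in this list and also among the 28 hosts named above, and their lower calls count in both. Nhp2 fell by 0.23, from 4115, 1752, 1932 and 1175 units in vehicle to 3893, 1560, 1657 and 850 units in acetate (adjusted p = 0.0166). Gar1 fell by 0.20 (adjusted p = 0.00943) and both proteins belong to the H/ACA particle. Tcof1, the nucleolar phosphoprotein treacle, fell by 0.19, from 3769 ± 1307 to 3318 ± 1228 units (adjusted p = 0.00182), and kept its call whichever pair was left out. Nhp2 kept it only without pair 1 and Gar1 only without pair 1 or 2. The list had 7, 3, 1 and 1 lower calls without pair 1, 2, 3 and 4. Like Snhg1 and Snhg5, Nhp2, Gar1, Tcof1 and Dkc1 were highest in pair 1 and lowest in pair 4 in both groups.

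Ribosomal proteins are encoded by the classic messages with a pyrimidine start. Their genes were listed by symbol, which also took in Rpl3l, at a mean under 1 unit. The mean difference was below 0 in 77 of 81 cases, with a median of -0.06. It was below 0 in 5114 of the 10292 genes with a mean of at least 100 units. In the blocked fit 2 of 81 passed the test as lower, beside 2.65% of all genes. These were Rplp1 (29521 ± 528 to 26298 ± 1347 units, adjusted p = 0.00867) and Rps3a1 (17328 ± 510 to 16118 ± 310 units, adjusted p = 0.0414). The count was 17 without pair 1 and 0 without pair 2, 3 or 4, 10 with median-of-ratios scaling and the block, 10 with blocked DESeq2 and 25 with blocked edgeR. Of 13 genes of the mTOR pathway, 2 fell and 1 rose, beside 8.64% of all genes and 15.0% of those with a mean of at least 100 units called in either direction, and the median was 0.01, or -0.01 with median-of-ratios scaling. With that scaling and the block, and likewise with blocked edgeR, 4 fell and 0 rose, and with blocked DESeq2 2 fell and 0 rose. Sesn2, an inhibitor of mTORC1 that responds to amino acid shortage, fell by 0.51 (185, 526, 643 and 225 units to 152, 331, 370 and 182 units, adjusted p = 0.00442, 0.0705 without pair 3). Eif4ebp1, the translational repressor that mTOR inactivates, fell by 0.30 (adjusted p = 0.00497, 0.0689 without pair 3 and 0.0598 without pair 4). Ddit4 rose by 0.11 (adjusted p = 0.0412), a call that no fit without a pair kept and that median-of-ratios scaling with the block did not make.

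Of 21 nonsense-mediated decay factors, 1 fell, with a median of -0.04. It was Upf3a, at 794 ± 57.9 units in vehicle and 705 ± 11.9 in acetate (-0.17, adjusted p = 0.0468, kept only without pair 2 and not called by blocked DESeq2, adjusted p = 0.066). Among 12 protein-coding genes whose messages are known targets of this decay, 1 fell and 0 rose, and the median was -0.01. Atf4, the transcription factor of the integrated stress response, was at 4529, 6033, 7345 and 2573 units in vehicle and 4102, 4287, 5503 and 1900 units in acetate, lower in 4 of 4 pairs. It fell by 0.37 (adjusted p = 0.00103) and kept the call whichever pair was left out. Of the 7 glucocorticoid receptor genes in the table, which were listed because Gas5 binds this receptor, 2 fell and 2 rose (15.0% of genes with a mean of at least 100 units were called in either direction). Tsc22d3, a direct target, fell by 0.30 (adjusted p = 0.0196) and Nr3c1, the receptor itself, by 0.17 (adjusted p = 0.0232). Per1 rose by 0.23 (adjusted p = 0.00867) and Dusp1 by 0.26 (adjusted p = 0.0495). Blocked DESeq2 called neither of these rises (adjusted p = 0.0698 and 0.173), and 1 rise was called in the list with median-of-ratios scaling and the block. Of these, Nr3c1 and Dusp1 lost the call whichever pair was left out, and Tsc22d3 and Per1 kept it only without pair 1.

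Of 11 long non-coding RNAs without a snoRNA, 0 were called by limma with or without the block, by DESeq2 or by edgeR with the block, 1 had an unadjusted p under 0.05 in the blocked limma fit, and their median was 0.02. Neat1 was at 17186 ± 9385 units in vehicle and 18233 ± 10320 in acetate (0.08, adjusted p = 0.105), and Malat1 at 5568 ± 1446 and 5794 ± 1842 units (0.04, adjusted p = 0.61). Neat1 was lowest in pair 1 and highest in pair 4, whereas Snhg1, Snhg3 and Snhg5 were highest in pair 1 and lowest in pair 4.

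**Figure D5:**
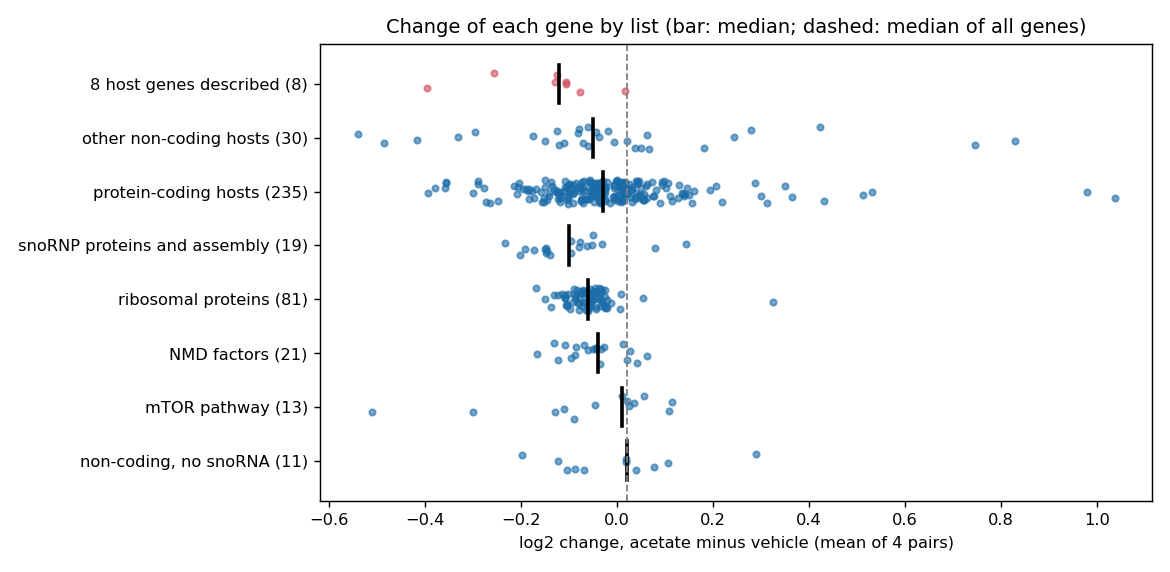
Mean difference over 4 pairs on the log2(value + 1) scale of each gene (points) in the 8 host genes and 7 comparison lists, with the list median (bar), the number of genes in parentheses and the median of all genes (dashed line, 0.02). The medians are -0.12 for the 8 host genes, -0.10 for snoRNA-binding and assembly proteins and 0.02 for non-coding RNAs without a snoRNA.

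Markers moved between the groups as well. In the blocked fit the epithelial keratin Krt19 rose by 0.40 (3357 ± 1343 to 4352 ± 1494 units, adjusted p = 0.000254), Cdh1 by 0.15 (adjusted p = 0.00592) and the mesenchymal marker Pdgfra by 0.52 (994 ± 544 to 1367 ± 680 units, adjusted p = 0.000372). The epithelial markers did not move as a set. Krt8 (-0.06, lower in 4 of 4 pairs), Krt18 (-0.05) and Epcam (0.07) were not called (adjusted p = 0.214, 0.363 and 0.154). Krt19 and Pdgfra kept the call whichever pair was left out, and Cdh1 lost it without pair 2 (adjusted p = 0.058) or pair 3 (adjusted p = 0.0689). Their part in the differences of the host genes was not tested.

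The genes most like Gas5 over the 8 libraries, among 10292 with a mean of at least 100 units, were Rpl10a (Pearson r = 0.977), Nsmce4a (0.954), Patz1 (0.94), Rps3a1 (0.924) and Anapc4 (0.919), of which Rpl10a and Rps3a1 encode ribosomal proteins. These had smaller differences than Gas5, between -0.10 and -0.06. Once the mean of each pair was taken off, Mid1ip1 (0.999), Recql (0.999), 2410006H16Rik (0.998), Aldh18a1 (0.996) and Cirbp (0.996) came first, which share the order of Gas5 over the pairs and differ in size from -0.30 to -0.08. Over the 8 libraries as they stand, r with Gas5 was 0.646 for Snhg12, 0.607 for Snhg8, 0.574 for Zfas1, 0.277 for Snhg6, 0.117 for Snhg1, 0.0251 for Snhg5 and -0.123 for Snhg3. With the pair means taken off it was 0.977 for Snhg12, 0.958 for Snhg8, 0.954 for Snhg1, 0.935 for Snhg5 and Zfas1, 0.837 for Snhg6 and -0.179 for Snhg3. These values rest on 4 pair differences each, and 11.1% of genes had a higher value than Snhg6 and 0.962% a higher value than Snhg12. Genes that are lower with acetate score high on this measure by its construction. The 8 genes were chosen with that contrast known, so nothing is read from their likeness with the pair means taken off.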

How the data were processed

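Poly-A RNA of 4T1 cells was sequenced in 4 vehicle and 4 acetate libraries (stranded mRNA preparation, 48 hours, 5 mM acetate). Per the methods, reads were aligned by the authors to mouse transcripts of build GRCm38 and quantified with STAR, and HTSeq is also listed in their processing notes. Versions and the use of strand in counting are not given in the sources used here. The deposited values are a normalised signal, each gene's reads scaled by the authors to a library total of 20000000, for genes above 0 in at least 4 libraries. Per library, 100% of values were whole multiples of 1 read (tolerance 0.05), which gave back 19.9 to 29.3 M reads (M, mega). In vehicle replicate 3, 1 read is worth 1.0053 units, which the unit check could not tell from rounding.

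Symbols and coordinates came from GENCODE M21 (GRCm38, 20004 of 20189 identifiers matched), snoRNA sequences from the genome of that build and promoters from RefSeq (GRCm38.p6). limma 3.58.1 (R 4.3.3, trended eBayes, two-sided) was fitted to log2(value + 1) of every gene, with p-values adjusted by Benjamini-Hochberg and a threshold of 0.05, without a block as in the study's unpaired ranking. This scale understates the change of low genes. The labels give same-numbered libraries 1 shared code, and deviations from the group mean correlated within each number (0.814, 0.273, 0.201 and 0.691 for pairs 1 to 4). The numbers were therefore taken as pairs, and the fit with the replicate block is reported where a call changes. edgeR 4.0.16 and DESeq2 1.42.0 were run on recovered reads as alternatives and called 2400 and 1126 genes with the block. The fits were tested on simulated data.

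The members and lists were chosen with earlier results of these data known. Named genes were the 8 members, from each other list up to 4 genes called in the blocked fit by size of change or else the 2 most abundant, the nearest protein-coding start to each member, and the genes most correlated with Gas5. Alternatives were pseudocounts of 0.1 and 5, a filter at a mean of 10 units, median-of-ratios scaling, the block, count tests and leaving out each library or pair. The run of C and T within 10 bases of the start and the medians of single pairs were added after the data were seen. So was the list of 30 annotated hosts not typed as protein-coding.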

Additional observations from a re-analysis of the deposited data

Results flagged for a closer look

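In 118 groups of 4 libraries (59 named genes), 4 held a library far from the other 3 by Dixon's criterion, where chance gives about 1 in 20, and none was in one of the 8 host genes. Ddit4, an inhibitor of mTORC1, was at 1007 units in vehicle 1 with the others at 8898 to 9338, and at 1147 units in acetate 1 with the others at 9518 to 9790. Zbtb37, which overlaps Gas5 on the opposite strand, was at 395 units in acetate 1 with the others at 566 to 588. Nsmce4a, among the genes most like Gas5 over the libraries, was at 1292 units in vehicle 1 with the others at 1369 to 1379. All 4 values were in pair 1.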

How the results depend on the processing

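Without a block limma called 0 genes and 0 genes of the lists. With the replicate block these counts were 1744 and 54, with median-of-ratios scaling and the block 1821 and 69, with edgeR and the block 2400 and 98, and with DESeq2 and the block 1126 and 52. DESeq2 without the block called 7 genes. The blocked fit without pair 1, 2, 3 or 4 called 1662, 617, 409 and 539 genes and 66, 18, 6 and 13 list genes. The share of calls that were higher was 69.3% with the block and 54.9% when median-of-ratios scaling was added. The median over the 8 host genes was -0.12, and ran from -0.27 without acetate 1 to -0.05 without acetate 4 over the fits without a library. It was -0.28 in pair 4 alone. Gas5 (-0.33 to -0.18), Snhg12 (-0.57 to -0.25), Snhg8 (-0.16 to -0.03) and Zfas1 (-0.20 to -0.04) were below 0 in 22 of 22 other settings. Snhg1 (up to 0.08), Snhg5 (up to 0.14), Snhg6 (up to 0.01) and Snhg3 (-0.25 to 0.29) were not. Tests between pairs called 11746 genes, and 6199 to 11610 without a pair, the fewest without pair 1. The median host level was 601 units per kb, and 773 with the longest transcript. The median C and T run was 2.0 bases over the start and 6.5 within 10 bases of it. The causes were not tested. Depth limits Snora73a and Snord87, with at most 14 reads, and SEs of the blocked fit were 0.04 to 0.09 for the host genes.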
